A study of Mus musculus with 10 samples.

Results

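The genes described here encode the subunits of the oxidative phosphorylation (OXPHOS) machinery, together with a few of its assembly factors, in epidermal cells of mice that lost Eed or both Ring1 proteins. Genes were taken by name from each of the 2 gene tables: symbols beginning with mt-, Ndufa, Ndufb, Ndufc, Ndufs, Ndufv, Uqcr or Atp5, and symbols with Cox followed by a digit from 4 to 8. This gave 100 of 18502 genes in the Eed table and 100 of 18344 in the Ring1 table. Of each 100, 13 lie on mitochondrial DNA, here called mt- genes, and 87 are nuclear. Of these, 97 in the Eed table and 96 in the Ring1 table had a mean normalised count of at least 5 and were tested; Cox4i2, Cox7b2 and a second, nearly silent identifier of Atp5o missed that level in both tables, and Cox7a1 missed it in the Ring1 table.

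Mitochondria make most of a cell's ATP by passing electrons along complexes I, III and IV of the inner membrane, which pump protons out, and by letting the protons back through complex V, the ATP synthase. Complex II, succinate dehydrogenase, feeds electrons in without pumping and is built from nuclear genes only, whereas the other complexes mix nuclear subunits with a core made inside the organelle. The mitochondrial genome is a small circle read from both strands as long precursor RNAs, which are cut into single messages. Interfollicular epidermis renews itself from a basal layer of keratinocytes. Eed is a core subunit of Polycomb repressive complex 2, which methylates histone H3 at lysine 27, and Ring1a and Ring1b (gene symbols Ring1 and Rnf2) are the ubiquitin ligases of Polycomb repressive complex 1.

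The study compared bulk RNA from sorted back-skin cells of mice at postnatal day 71. The Eed knockout, labelled Eed-/-, had 3 libraries and its own controls 3, while the Ring1a/b 2KO, labelled Ring1a-/- Ring1b-/-, had 2 libraries and separate controls 2. All 4 groups carry the same treatment note: hydroxytamoxifen at 20 mg/ml in ethanol, 100 µl on shaved back skin daily for 4 days from postnatal day 50. The sort kept EpCAM-positive, Sca1-positive cells with high α6 integrin, a gate for the basal interfollicular layer; the alleles behind "control", the Cre driver and the number of mice per library are not given in the labels, so p-values measure the spread between these libraries only. In bulk RNA, fewer cells of a type and less RNA per cell cannot be told apart.

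The basal keratins Krt5 and Krt14 were abundant in all 10 libraries, from 107871 to 737780 and from 57540 to 662363 normalised counts respectively. The counts of the deleted genes did not separate the groups. Eed had 1845, 1319 and 1706 normalised counts in its controls and 1412, 1143 and 1340 in its knockout, Ring1 had 66.2 and 211 against 104 and 115, and Rnf2 had 675 and 670 against 720 and 529; all of these groups overlap. A count over the whole transcript need not change when only some exons are removed, and which exons were removed is not given in the labels. The Eed libraries held 31699979 to 40701183 reads. In the Ring1 set library 2 was shallow in both groups: 25158144 and 7162907 reads in the controls, 19814853 and 6237389 in the 2KO.

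Among the mt- genes, neighbours share bases, which bears on how reads can be assigned. The longest overlap, 43 bases at chrM:7927-7969, joins mt-Atp8, annotated at 204 nt, with mt-Atp6. The junction of mt-Nd5 and mt-Nd6 is shown because mt-Nd6 is the only one of the 13 read from the other strand. Both GENCODE M21 transcript models end in the same 14 base pairs, at chrM:13552-13565 in mm10, read from opposite strands. Whether the messages run beyond these models is not given. The first 2 lines give the last bases of each model in its own reading direction, with the shared stretch in capitals. The other pair of lines shows the join of mt-Nd4l and mt-Nd4 at chrM:10167-10173. There the end of the first reading frame overlaps the start of the second by 7 bases on 1 strand.
mt-Nd5: atactcaaTTAATCTCGAGTAA
mt-Nd6: tatcgagaTTACTCGAGATTAA
mt-Nd4l: ctactacaATGCTAA
mt-Nd4: ATGCTAAaaattatt
No label says whether the library kit marked strand, and mt-Nd6 reads cannot be told apart from reads of the opposite strand at that locus. Nuclear copies of mitochondrial DNA and processed pseudogenes of short nuclear subunits can also share reads with their parents, and single-gene values carry that uncertainty.

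Most OXPHOS genes had small positive values in both comparisons, which in the Eed set rested on 1 library for the nuclear genes. In the Ring1a/b 2KO, 92 of 96 tested OXPHOS genes had a positive log2 fold change (knockout over control, on log2 of the normalised count plus 1), with a median of 0.42 against -0.00 over all 15310 genes tested. In the Eed knockout 90 of 97 were positive, with a median of 0.31 against 0.01 over 16122 genes. Without Eed knockout 1, however, 34 of the 84 nuclear genes were positive and 50 negative, with a nuclear median of -0.03. Over all genes tested, 50% were positive in the Ring1 set, and 51.2% were positive and 48.8% negative in the Eed set. No OXPHOS gene passed the main test in either comparison (limma across all genes, Benjamini-Hochberg adjusted p under 0.05). That test called 0 of 16122 genes in the Eed knockout (0%) and 6 of 15310 in the 2KO (0.0392%, of which 0.0327% higher and 0.00653% lower). At an unadjusted p under 0.05 the Eed test had 548 genes higher and 214 lower.

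At an unadjusted p under 0.05, limma had 33 of 96 OXPHOS genes higher and 0 lower in the 2KO, 3 of them mt- and 30 nuclear; over all genes 5.62% were higher and 4.81% lower. The Eed knockout had 1 higher and 0 lower, beside 3.40% and 1.33% over all genes. edgeR's quasi-likelihood test on recovered reads called 0 OXPHOS genes in both comparisons. The authors' deposited table called a single OXPHOS gene in each set at adjusted p under 0.05, Cox6b2 in the Eed knockout and mt-Nd6 in the 2KO; over all genes it called 0.761% in the first (0.707% higher and 0.0539% lower) and 1.49% in the second (1.18% higher and 0.31% lower).

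**Figure D1:**
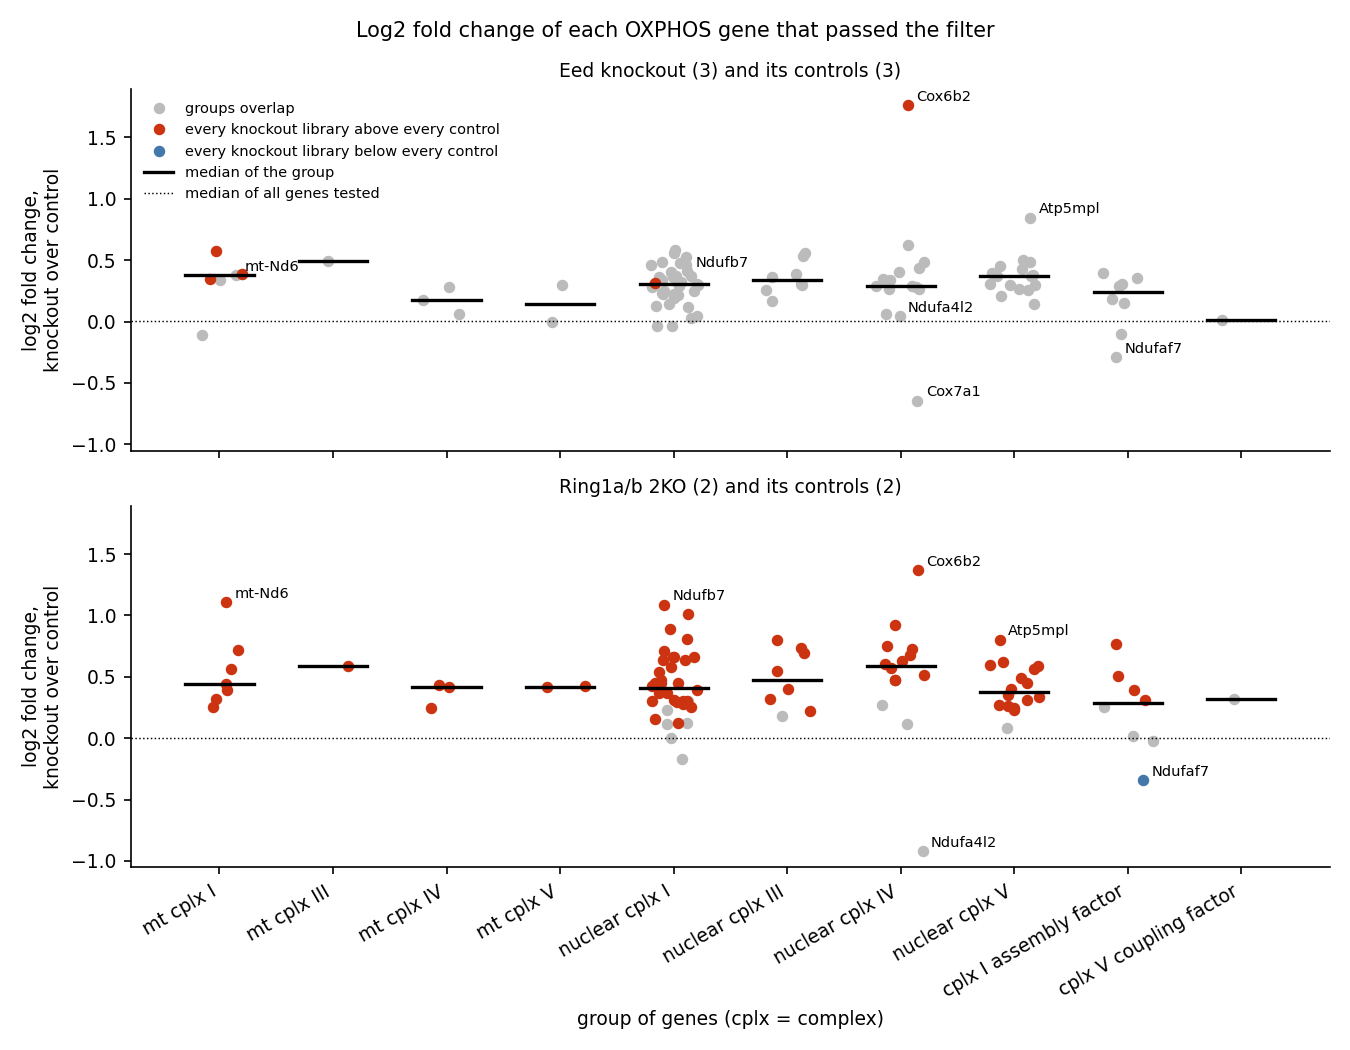
Each point is 1 OXPHOS gene that passed the filter; the y axis is its log2 fold change and the x axis groups genes by genome and complex, with the Eed knockout above and the Ring1a/b 2KO below. Short black lines are group medians and the dotted line is the median of all genes. Red points, 80 of 96 in the lower panel and 5 of 97 in the upper, are genes with every knockout library above every control. Over all genes tested, that share was 21.4% in the lower comparison and 5.06% in the upper.

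The share of all reads that came from the 13 mt- genes was 2.34%, 2.81% and 2.51% for Eed controls against 3.31%, 3.58% and 2.85% for Eed knockouts. The groups did not overlap, though control 2 and knockout 3 lay close together. Their means were 2.56% ± 0.237 (SD, n = 3) and 3.25% ± 0.369 (SD, n = 3), a ratio of 1.27 (exact permutation test, two-sided p = 0.1, the smallest that 3 against 3 allows). In the Ring1 set the share was 6.51% and 7.28% for controls against 8.16% and 12.7% for the 2KO. These groups did not overlap either, and 2KO library 2, the shallowest of the series, was the highest by far. The means were 6.89% ± 0.544 and 10.4% ± 3.18 (SD, n = 2 each; exact permutation two-sided p = 0.333, the smallest that 2 against 2 allows). Levels are not compared between the Eed and Ring1 tables, which were normalised separately.

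Nuclear OXPHOS genes together made up 0.646%, 0.898% and 0.645% of the reads of Eed controls against 1.35%, 0.821% and 0.674% for knockouts. Knockout 1 stood far above the rest, control 2 was second, and the groups overlapped (exact permutation p = 0.5). Ring1 controls gave 0.597% and 0.562% against 0.750% and 0.886% for the 2KO, without overlap (exact permutation p = 0.333). Both genomes thus had higher shares in the 2KO, by a ratio of means of 1.51 for mt- genes and 1.41 for nuclear ones.

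The number of mt- reads per nuclear OXPHOS read is the direct comparison of the 2 genomes within a library. It was 3.62, 3.13 and 3.90 for Eed controls against 2.46, 4.37 and 4.23 for knockouts, where library 1 was the lowest and libraries 2 and 3 the highest of the 6. In the Ring1 set it was 10.9 and 12.9 against 10.9 and 14.3. Groups overlapped in both sets, and the log2 ratio of knockout over control was 0.054 and 0.078 (exact permutation p = 0.9 and 1.0). Over leave-one-out runs that log2 ratio ranged from -0.086 to 0.276 in the Eed set and from -0.131 to 0.260 in the Ring1 set. With 3 against 3 and 2 against 2 libraries the exact test cannot go below 0.1 and 0.333, so it could not call a shift of any size. mt-Co1, the catalytic core of complex IV and the most abundant of the 13, supplied 32.95% to 44.7% of mt- reads, and leaving it out gave 0.072 and 0.090.

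**Figure D2:**
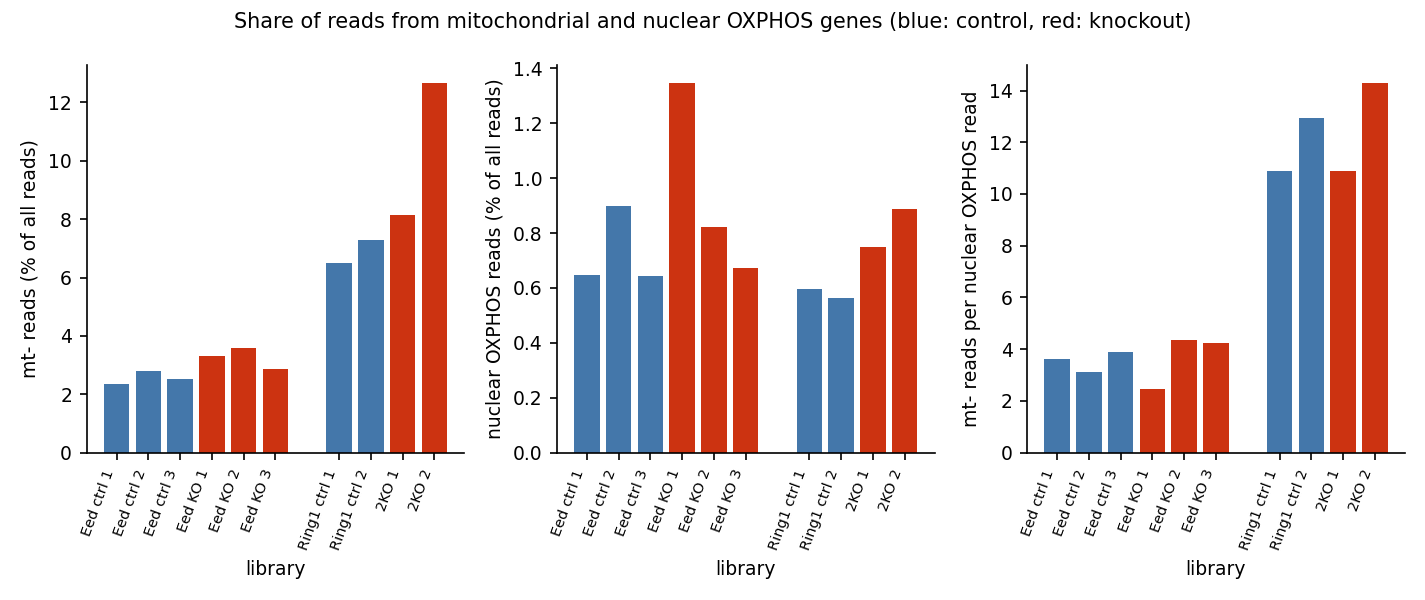
Bars give, for each of the 10 libraries, the percentage of all reads from mt- genes (left), from nuclear OXPHOS genes (middle) and the number of mt- reads per nuclear OXPHOS read (right), with controls in blue and knockouts in red. The 2KO bars stand above their controls in the left and middle panels, from 8.16% to 12.7% and from 0.750% to 0.886%, and overlap them in the right panel.

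Nuclear OXPHOS genes varied together from library to library. Relative to the control mean, the median nuclear gene stood at -0.22, 0.45 and -0.22 (log2) in Eed controls 1 to 3 against 1.03, 0.16 and -0.21 in knockouts 1 to 3. Eed knockout 1 and control 2 were high, the other 4 libraries lay between -0.22 and 0.16, and the groups overlapped. Over the other 5 leave-one-out runs the nuclear median ranged from 0.20 to 0.57. The mt- genes did not follow that order: their medians were -0.17, 0.09 and 0.00 for controls against 0.34, 0.39 and 0.00 for knockouts, and without knockout 1 the mt- median stayed positive, as it did in each of the 6 leave-one-out runs (0.21 to 0.45, and 0.26 to 0.59 over the 4 runs of the Ring1 set). In the Ring1 set the nuclear medians were 0.10 and -0.10 against 0.38 and 0.48, and the mt- medians -0.00 and 0.00 against 0.26 and 0.59. Both 2KO libraries were above both controls for both genomes.

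Nuclear OXPHOS transcripts are short, with a median length of 892 nt in the Eed set and 908 nt in the Ring1 set against 3122 and 3179 nt for all genes tested, and short transcripts of other genes lay on the same side of 0. Genes outside the rule with transcripts under 1 kb had a median log2 fold change of 0.20 in the Eed knockout (891 genes) and 0.19 in the 2KO (749 genes); those of 4 kb and over had -0.07 and -0.09. Nuclear OXPHOS genes under 1 kb had 0.36 (48 genes) and 0.50 (47 genes). In Eed knockout 1 the short non-OXPHOS genes stood at 0.70 and in control 2 at 0.24, the 2 libraries in which nuclear OXPHOS genes were also high. In the 2KO libraries they stood at 0.18 and 0.22, below the OXPHOS genes of the same length at 0.45 and 0.59. The part of transcript length in the OXPHOS values was not tested beyond these ranges.

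**Figure D3:**
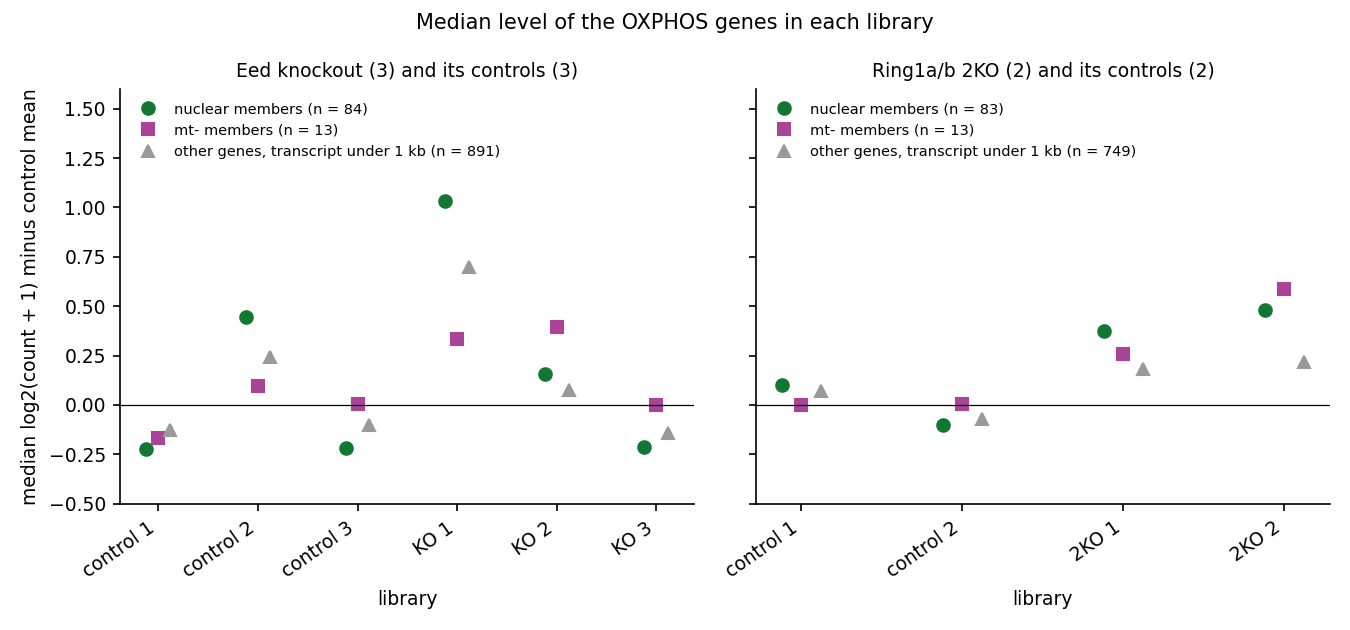
Each point is the median over a gene group of log2(count + 1) minus the control mean, for 1 library on the x axis; circles are nuclear OXPHOS genes, squares mt- genes and triangles other genes with transcripts under 1 kb. Eed knockout 1 reached 1.03 for nuclear OXPHOS genes and 0.70 for other short genes, while both 2KO libraries lay above their controls for all 3 groups.

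The mt- genes of complex I gave the widest range. mt-Nd6, on the light-strand message, had 4937 and 5451 normalised counts in Ring1 controls against 8615 and 14473 in the 2KO, from 9477, 3280, 13938 and 8072 reads. Both 2KO libraries were above both controls, and library 2 was the highest. The means of 5194 ± 363 and 11544 ± 4143 (SD, n = 2) differ 2.22-fold; limma gave a log2 fold change of 1.11 (standard error 0.27, adjusted p = 0.230) and the authors' deposited table gave 1.15 (adjusted p = 0.0177). The deposited call was lost without any of 3 libraries: DESeq2 on the recovered reads gave an adjusted p of 0.817 without control 1, 0.400 without control 2 and 0.394 without 2KO 2, and kept the call without 2KO 1. Its log2 fold change was 1.09 without control 1 and 1.21 without control 2, but 0.74 without 2KO 2. As a share of mt- reads, mt-Nd6 was 0.579% and 0.629% against 0.862% and 1.02%, again without overlap (exact permutation p = 0.333).

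mt-Nd5, the neighbour whose annotated end shares the 14 base pairs printed above with mt-Nd6, encodes a proton-pumping core subunit. It had 71234 and 76375 counts against 100101 and 147344. These groups did not overlap (log2 fold change 0.72, standard error 0.27, limma adjusted p = 0.413). The number of mt-Nd6 reads per mt-Nd5 read was 0.0693 and 0.0714 against 0.0861 and 0.0982, without overlap (exact permutation p = 0.333, the smallest possible). In the Eed set the same ratio overlapped, at 0.0641, 0.0637 and 0.0823 against 0.0803, 0.0516 and 0.0544. There mt-Nd6 itself had 2562, 2931 and 4213 counts against 6749, 3659 and 2822, where only knockout 1 lay outside the control range (log2 fold change 0.38, standard error 0.32).

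The other complex I genes of mitochondrial DNA were less spread. mt-Nd4 and mt-Nd4l, which lie on 1 shared message, had log2 fold changes of 0.39 and 0.35 in the Eed knockout and 0.39 and 0.32 in the 2KO, and both were among the 3 mt- genes with no overlap between Eed groups. The third was mt-Nd5, with 39991, 46039 and 51210 counts in Eed controls against 84079, 70964 and 51835 in knockouts. Knockout 3 was barely above control 3 (log2 fold change 0.57, standard error 0.26, limma adjusted p = 0.989). mt-Nd1 and mt-Nd2 stood at 0.34 and 0.39 in the Eed knockout and at 0.44 and 0.25 in the 2KO. mt-Nd3, a short membrane subunit, was -0.11 in the Eed knockout and 0.56 in the 2KO, with 340 to 747 counts in the Eed libraries.

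mt-Cytb, the core of complex III, had 79105, 106891 and 77074 counts in Eed controls and 148768, 131013 and 93195 in knockouts; knockout 3 lay inside the control range. In the Ring1 set it had 105118 and 109133 against 131393 and 197760, without overlap (log2 fold change 0.59, standard error 0.27). The 3 complex IV genes, mt-Co1, mt-Co2 and mt-Co3, stood at 0.44, 0.42 and 0.24 in the 2KO and at 0.28, 0.17 and 0.06 in the Eed knockout. mt-Co1 had 295291 and 317124 counts in Ring1 controls against 329253 and 521130, and its 2KO value ranged from 0.11 to 0.77 when 1 library was left out; 2KO 2 was by far the highest. mt-Co2 had 47574 and 44678 against 55849 and 67681, with a range of 0.28 to 0.55. mt-Atp6, the proton channel of complex V, was 0.42 and 0.30, and mt-Atp8, which shares 43 bases with it, was 0.41 and -0.01. All 13 were positive and without overlap in the 2KO, beside 21.4% of all genes higher without overlap there. In the Eed knockout 11 of 13 were positive and 3 of 13 without overlap, beside 5.06% of all genes.

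**Figure D4:**
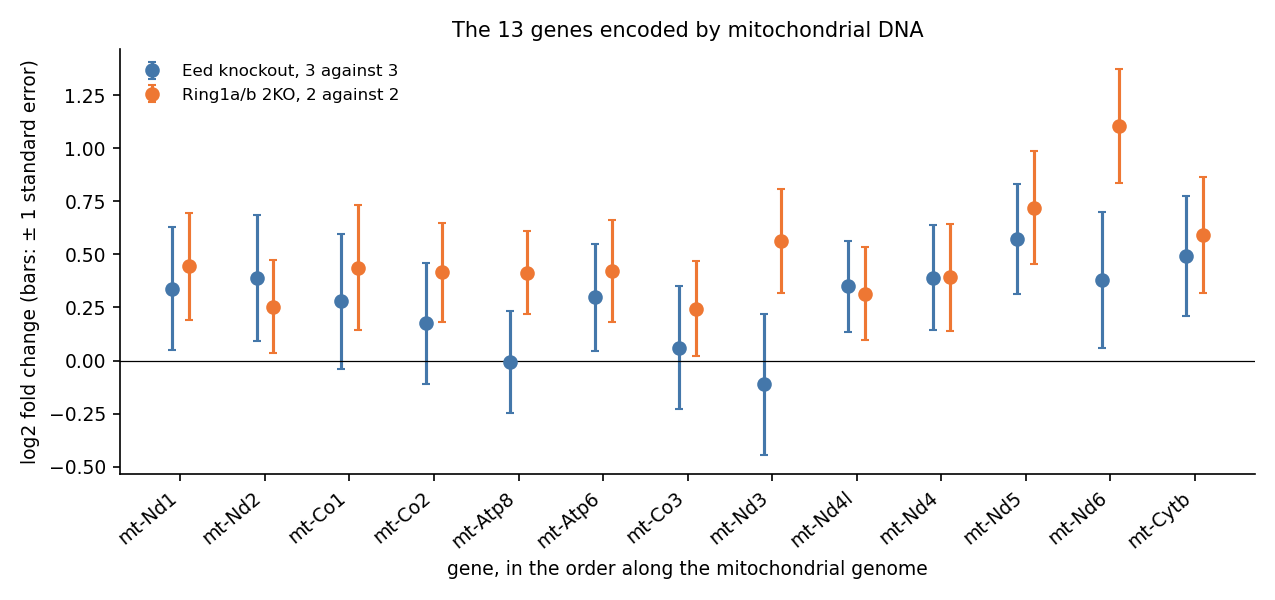
Points are log2 fold changes of the 13 mt- genes in their order along the mitochondrial genome (x axis), with bars of 1 standard error from limma, for the Eed knockout (blue, 3 against 3) and the Ring1a/b 2KO (orange, 2 against 2). mt-Nd6 in the 2KO, at 1.11, is the highest point; the 2 Eed values below 0 are mt-Nd3 and mt-Atp8.

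Genes whose groups did not overlap are counted next. In the 2KO, 80 of 96 OXPHOS genes had both knockout libraries above both controls and 1, Ndufaf7, had both below; over all genes 21.4% were higher and 21.5% lower in this sense. All 13 mt- genes and 67 of 83 nuclear ones made up the 80. Leaving out 1 library at a time gave 84 to 86, beside 32.3% to 38.9% of all genes. In the Eed knockout 5 of 97 were higher without overlap (mt-Nd4, mt-Nd4l, mt-Nd5, Ndufa12 and Cox6b2), which is 5.15% beside 5.06% of all genes, and 0 were lower (4.15% of all genes). Without Eed control 2 that count was 36 (13.3% of all genes) and without knockout 3 it was 18 (11.01%).

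Complex I, the entry point for electrons from NADH, has 36 nuclear subunits here. Their median log2 fold change was 0.41 in the 2KO, with 35 of 36 positive and 30 higher without overlap, beside 21.4% of all genes. In the Eed knockout it was 0.30, with 34 of 36 positive and 1 higher without overlap, beside 5.06% of all genes. Ndufb7, an accessory subunit, was the highest in the 2KO with 109 and 101 counts against 208 and 244. Its groups were well apart, at means of 105 ± 5.67 and 226 ± 25.6 (SD, n = 2), a 2.14-fold difference (log2 fold change 1.09, standard error 0.32, limma adjusted p = 0.331). In the Eed set Ndufb7 had 699, 1058 and 794 against 2493, 914 and 604, where only knockout 1 was high.

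Ndufc2, another accessory subunit, was next in the 2KO, with 187 and 204 counts against 357 and 437 and no overlap (log2 fold change 1.01, standard error 0.26, limma adjusted p = 0.263, the smallest of the nuclear genes). It was also the highest complex I subunit in the Eed knockout at 0.58, with 1087, 2386 and 1076 against 3878, 1699 and 1419 counts; here control 2 lay above 2 knockout libraries. Ndufa12, which sits on the matrix arm, had no overlap in either set: 1048, 945 and 1007 against 1506, 1103 and 1154 in the Eed libraries (log2 fold change 0.31, standard error 0.19) and 305 and 291 against 540 and 506 in the Ring1 libraries (0.81, standard error 0.23). Neither passed the test (limma adjusted p = 0.989 and 0.306). At the low end, Ndufs1, the largest iron-sulfur subunit, was -0.04 in the Eed knockout and 0.12 in the 2KO, Ndufa6 was -0.17 in the 2KO, and Ndufb11 was 0.00 there with overlapping groups.

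The 8 complex I assembly factors named Ndufaf, which match the naming rule but are not subunits, were mixed. Their median was 0.28 in the 2KO and 0.24 in the Eed knockout, and 6 of 8 were positive in each. Ndufaf7, a mitochondrial methyltransferase, was the one OXPHOS gene negative in both: 278 and 311 against 216 and 247 in the Ring1 libraries (log2 fold change -0.34, standard error 0.27) and 729, 532 and 513 against 514, 400 and 529 in the Eed libraries (-0.29, standard error 0.24). The first pair of groups did not overlap and the second did. Ndufaf4 was the highest of the 8 in the 2KO, with 307 and 231 against 350 and 588 (0.77, standard error 0.31).

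Complex III, which hands electrons from ubiquinol to cytochrome c, has 8 nuclear subunits, all positive in both comparisons, with medians of 0.47 in the 2KO and 0.33 in the Eed knockout. Uqcr10, the smallest of them by transcript length, had 460 and 445 counts in Ring1 controls and 603 and 1027 in the 2KO; the groups were apart, with library 2 the higher (log2 fold change 0.80, standard error 0.27, limma adjusted p = 0.386). Uqcrfs1, the Rieske iron-sulfur protein, was the lowest at 0.18, and its groups overlapped. Uqcrq led in the Eed knockout at 0.56 and Uqcrc1, a core protein, was lowest at 0.17. Cyc1, the cytochrome of this complex that the naming rule misses, had 822 and 794 against 1213 and 1368 in the Ring1 libraries (0.67, standard error 0.20, limma adjusted p = 0.331) and stood at 0.13 in the Eed knockout.

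Complex IV held the highest OXPHOS value of both comparisons, in a minor isoform. Cox6b2 is the testis form of a small subunit for which Cox6b1 is the form of most tissues. It had 70.1, 47.7 and 97.1 normalised counts in Eed controls, from 72, 47 and 96 reads, and 327, 146 and 272 in knockouts, from 273, 141 and 345 reads. Every knockout library was above every control. The means of 71.6 ± 24.7 and 249 ± 92.8 (SD, n = 3) differ 3.47-fold; limma gave a log2 fold change of 1.76 (standard error 0.43, adjusted p = 0.586) and the authors' deposited table gave 1.79 (adjusted p = 0.0106). DESeq2 on the recovered reads lost the call without control 1 (adjusted p = 0.132), knockout 1 (0.362) or knockout 3 (0.0979), and its log2 fold change stayed between 1.55 and 2.07 over the 6 runs.

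Cox6b2 was also the highest nuclear gene of the 2KO, at 32.8 and 23.3 counts against 78.5 and 68.1, without overlap. The means, 28.0 ± 6.75 and 73.3 ± 7.33 (SD, n = 2), differ 2.61-fold, and the log2 fold change was 1.37 (standard error 0.52, limma adjusted p = 0.418; 0.402 in the authors' deposited table). These counts rest on 63, 14, 127 and 38 reads. Cox6b1 had 2757, 5816 and 2751 counts in Eed controls and 7407, 3651 and 2984 in the knockout, with overlap, and 430 and 361 against 575 and 769 in the Ring1 set, without. Per kilobase of transcript the testis form stayed minor: 122 against 6108 for Cox6b1 in Eed controls, 425 against 7573 in the Eed knockout, 47.9 against 640 in Ring1 controls and 125 against 1087 in the 2KO.

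The remaining isoforms known from other tissues had overlapping groups or too few counts to compare. Cox4i2, the lung form, and Cox7b2 stayed under the filter in both sets, at 0 to 13.3 and 0 to 6.07 counts per library. Cox7a1, a muscle and heart form, had 0 to 20.2 counts in Eed libraries. In the Ring1 set, under the filter, it had 0 and 1.66 against 4.33 and 3.59. These groups did not overlap, beside 21.4% of all genes tested higher without overlap, but the counts are near the floor. Skeletal muscle markers were low in the Eed and Ring1 sets, with summed counts of 151 to 289 and 37.0 to 78.1. Ndufa4l2, the hypoxia-induced relative of Ndufa4, had 3826, 12853 and 6105 counts in Eed controls and 11336, 8960 and 3264 in knockouts, a range that covers both groups. In the Ring1 set it was the lowest OXPHOS gene, with 538 and 927 against 575 and 242 and overlap between groups (log2 fold change -0.92, standard error 0.50, limma adjusted p = 0.595).

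Ndufa4 itself, a subunit of complex IV despite its name, had 697 and 575 against 889 and 1619 (0.92, standard error 0.30, limma adjusted p = 0.372). Cox5a, a subunit on the matrix side, had 691 and 600 against 1010 and 1122 (0.73, standard error 0.21). Neither pair of groups overlapped. The 14 nuclear complex IV genes tested in the Ring1 set had a median of 0.59, the highest of the 4 complexes. Of these, 13 were positive and 11 higher without overlap, beside 21.4% of all genes. The 15 tested in the Eed set had a median of 0.29, with 14 positive and 1 higher without overlap, beside 5.06% of all genes.

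**Figure D5:**
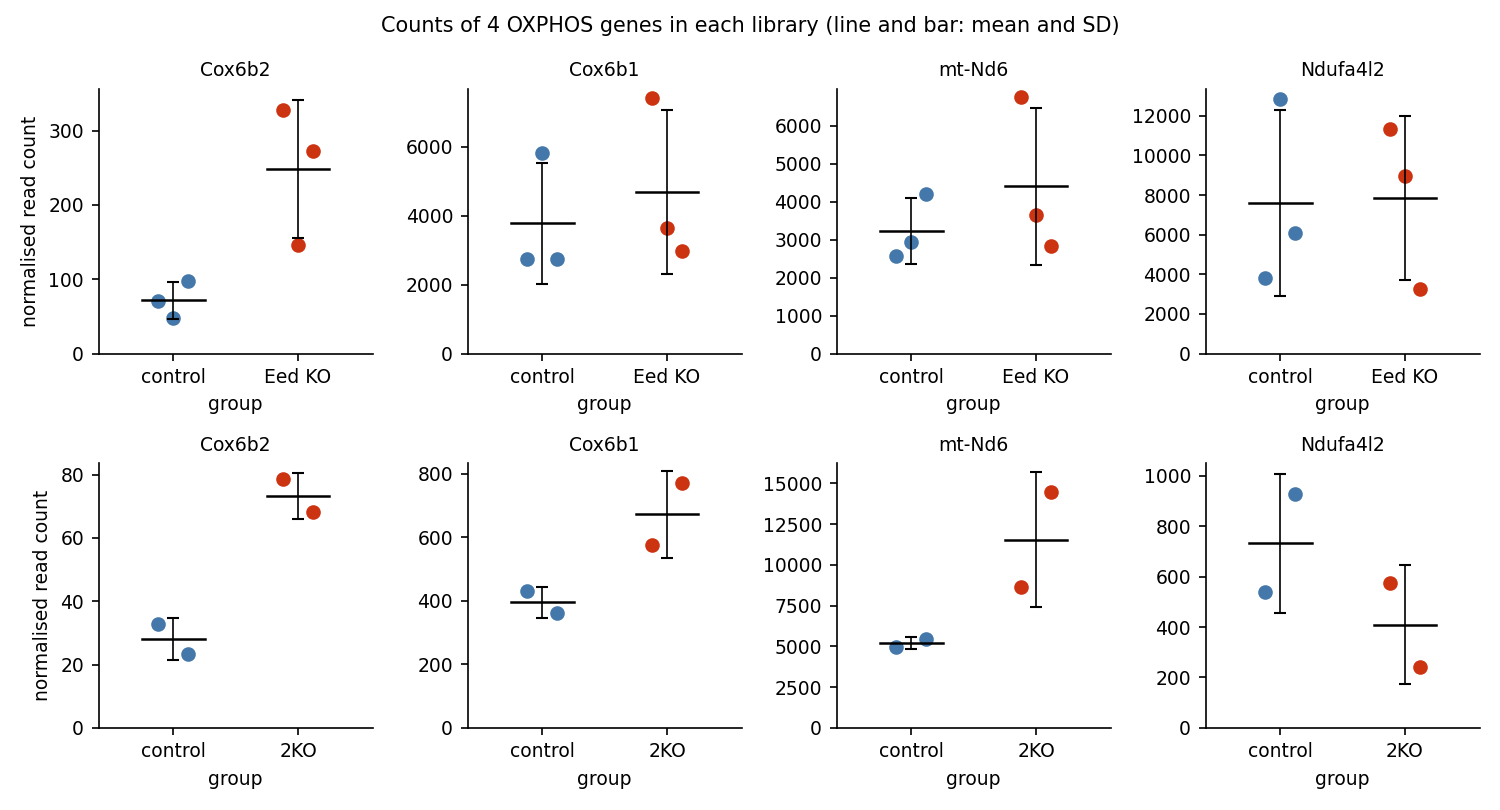
Points are normalised counts in each library for Cox6b2, its common form Cox6b1, mt-Nd6 and Ndufa4l2, with the mean (line) and SD (bar) of each group; the upper row is the Eed set and the lower row the Ring1 set. Cox6b2 has no overlap in either row (48 to 97 against 146 to 327, and 23 to 33 against 68 to 79), and Ndufa4l2 overlaps in both.

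All 16 tested nuclear genes of complex V were positive in both comparisons, with medians of 0.37 in the 2KO and 0.37 in the Eed knockout. In the 2KO 15 of 16 were higher without overlap, beside 21.4% of all genes. In the Eed knockout 0 of 16 were, beside 5.06% of all genes. The second identifier of Atp5o had 0 to 7.19 counts in the Eed libraries and 0 to 1.56 in the Ring1 libraries. Atp5mpl, a small proteolipid of the synthase membrane part, was the highest in both. It had 619 and 515 against 865 and 1124 in the Ring1 libraries, without overlap (0.80, standard error 0.23, limma adjusted p = 0.311), and 1207, 1991 and 1206 against 5703, 1962 and 1507 in the Eed libraries, where control 2 lay above knockouts 2 and 3 (0.85, standard error 0.44). Atp5b, the catalytic beta subunit and the nuclear OXPHOS gene with the highest mean count, had 25211, 37216 and 21685 against 50830, 31213 and 23717 in the Eed libraries and 9794 and 9080 against 11147 and 12646 in the Ring1 libraries (0.33, standard error 0.21). Atp5a1 stood at 0.14 and 0.27, Atp5c1, the central stalk subunit, at 0.26 and 0.31, and Atp5d at 0.31 and 0.09 in the Eed knockout and 2KO.

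Complex II, outside the naming rule, is built from nuclear genes only. Of its 4 genes, Sdhb, the iron-sulfur subunit, had 402 and 452 counts in Ring1 controls against 808 and 836 in the 2KO. The groups were far apart, at 427 ± 35.3 and 822 ± 19.2 (SD, n = 2; log2 fold change 0.95, standard error 0.21, limma adjusted p = 0.207; adjusted p = 0.0367 in the authors' deposited table). Sdhd stood at 0.50, Sdhc at 0.22 and Sdha, the flavoprotein, at 0.08, all without overlap. In the Eed knockout the 4 ranged from 0.07 to 0.48 and all groups overlapped. Cycs, the mobile carrier between complexes III and IV, was 0.34 in the 2KO and 0.24 in the Eed knockout.

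Other mitochondrial lists also had positive medians, and in none of them did a gene pass limma. The mitochondrial ribosome had 0.28 in the 2KO (70 of 78 positive) and 0.27 in the Eed knockout (74 of 78 positive). In the 2KO 35 of its genes were higher without overlap and 2 lower, beside 21.4% and 21.5% of all genes. Protein import stood at 0.32 (18 of 18 positive) and 0.25 (15 of 18), the tricarboxylic acid cycle at 0.18 (12 of 14) and 0.19 (12 of 14), and assembly factors outside the naming rule at 0.22 (28 of 33) and 0.17 (28 of 34). Timm8a1, an import chaperone, had the smallest p of the import list in the 2KO, at 635 and 513 against 911 and 1277 counts (0.92, limma adjusted p = 0.266). The mitochondrial stress response stood at 0.38 (7 of 11) and 0.09 (7 of 11), with the chaperonin pair Hspe1 and Hspd1 at 0.75 and 0.72 in the 2KO. Glycolysis, outside the mitochondrion, had 0.23 (13 of 17) and 0.32 (14 of 18), and the cytosolic ribosomal proteins, a list added after seeing the data, 0.19 (69 of 76) and 0.27 (73 of 76). In the Eed set knockout 1 stood apart in these lists too. Relative to the control mean, the mitochondrial ribosome was at 0.83 there against 0.08 and -0.13 in knockouts 2 and 3, and control 2 was at 0.34. Glycolysis was at 0.92 against 0.17 and -0.25, and protein import at 0.78 against 0.07 and -0.12.

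Genes that act on mitochondrial RNA or on the supply of these transcripts were mixed. Lists for mitochondrial DNA replication and transcription had medians of 0.20 (13 of 16 positive) and 0.24 (12 of 16), and those for RNA processing and stability 0.20 (13 of 17) and 0.10 (13 of 17). Within the latter, Slirp and Lrpprc, partners that bind and stabilise mitochondrial messages, stood at 0.72 and 0.67 in the 2KO (limma adjusted p = 0.349 and 0.381). The 12 regulators of mitochondrial biogenesis had -0.17 in the 2KO, with 3 positive, and 0.00 in the Eed knockout, with 6 positive. Ppara, a nuclear receptor for fatty acids, was the lowest at 206 ± 27.9 against 55.2 ± 45.1 counts in the Ring1 set (SD, n = 2; log2 fold change -2.16, limma adjusted p = 0.332).

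Several other features of the libraries differed between the Ring1 groups, and their part in the OXPHOS values was not tested. The 4 Y-linked genes summed to 2378 and 1318 counts in Ring1 controls against 126 and 219 in the 2KO, so sex of the cells and genotype cannot be told apart there; in the Eed set the sums were 10101, 7231 and 557 against 152, 8958 and 610 and overlapped. Of 12 basal keratinocyte markers, 10 were negative in the 2KO, with a median of -0.42, and 0 passed limma. For 8 of them both 2KO libraries lay below both controls, beside 21.5% of all genes. The summed count of the 12 was 414978 and 342474 against 330800 and 286585. Col17a1 and Krt15 stood at -0.92 and -0.99. Differentiation markers were mixed, 7 of 12 positive with a median of 0.20, and Krt1 had 13947 and 9866 against 24228 and 35925 counts. In the Eed set differentiation markers had 10 of 12 negative with a median of -0.40, and their sums overlapped at 333951, 513234 and 265536 against 184787, 368896 and 211069.

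Summed markers of other cells were low but above 0 in every Ring1 library, and their part in the OXPHOS values was not tested. Melanocyte markers were positive for 6 of 7 in the 2KO and summed to 240 and 311 counts against 650 and 351, with Tyrp1 at 0 in both controls and at 116 and 48.4 in the 2KO. Fibroblast markers were positive for 5 of 6 (median 1.01) and summed to 1401 and 1177 against 1964 and 1259. Langerhans and myeloid markers were negative for 5 of 6 (median -0.98) and summed to 745 and 661 against 742 and 407. Endothelial markers were positive for 3 of 4 (median 0.61) and summed to 532 and 490 against 533 and 430. In the Eed set the fibroblast sums were 4160, 4250 and 6348 against 8937, 5058 and 6187, and overlapped. Most of these sums came from Thy1, which is also on the T cell list (means of 4599 and 5423). Of the 7 fibroblast markers tested there, 6 were positive and 1 negative. The fibroblast gene Dcn had 19.5, 34.5 and 74.8 counts in Eed controls against 863, 306 and 129, so every knockout library was above every control (log2 fold change 3.09, limma adjusted p = 0.550; adjusted p = 0.000238 in the authors' deposited table).

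The difference between the 2 knockouts was tested directly in 1 limma fit over all 10 libraries. Of 15096 genes, 0 passed at an adjusted p under 0.05 and 285 had an unadjusted p under 0.05; of the 96 OXPHOS genes in both sets, 0 had either. The 2 sets share no control libraries. Signs matched for 88 of the 96: 87 genes were positive in both, 1 was negative in both and 8 had opposite signs. For the nuclear genes this match rested on Eed knockout 1. Without that library 34 of the 84 tested in the Eed set were positive and 50 negative. Of the differences with the 2KO higher, that of mt-Nd6 was the largest, at 0.73 (standard error 0.50, limma adjusted p = 0.99999). With the 2KO lower, Ndufa4l2 had the largest, at -0.965 (standard error 0.91). For Cox6b2 the 2KO minus Eed knockout difference was -0.39 (standard error 0.65).

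Promoters were examined because most nuclear OXPHOS genes had the same sign. RefSeq promoter sequences (GRCm38.p6, 250 bases before to 50 after the start) matched 72 of the 86 nuclear symbols. Motifs were searched on both strands with exact letters. A gene, inside or outside the list, counted as having a motif if any of its promoters held it. The share of all promoters counts each promoter singly, so it is not in the same unit as the shares of genes. The nuclear respiratory factor 1 core occurred in 17 of 72 (23.6%), against 4.60% of all 32851 promoters and 9.47% of 12330 tested genes outside the list. CCGGAAG, an ETS core, occurred in 16 (22.2%, against 8.86% and 16.9%), and AAGATGGCG, a YY1 core, in 8 (11.1%, against 1.40% and 2.86%).

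Fold changes are given for genes with and without these letters. In the 2KO the median was 0.45 with the nuclear respiratory factor 1 core (17 genes) and 0.47 without (53 genes), and in the Eed knockout 0.31 (17 genes) and 0.31 (54 genes). With and without the ETS core the 2KO medians were 0.52 and 0.39, and with and without the YY1 core 0.35 and 0.45. A match of letters is a description and not a binding site.

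Promoters of 3 genes are printed as the 250 bases before the RefSeq start, 5′ to 3′, with any match to the 3 motifs in capitals. They are the common form Cox6b1, the testis form Cox6b2, and Ndufa5. Ndufa5 was the gene with a nuclear respiratory factor 1 core whose value was highest in the 2KO. It had 186 and 183 against 246 and 477 counts (log2 fold change 0.89, standard error 0.34). The 3 windows lie on the minus strand at chr7:30626115-30626364, chr7:4753095-4753344 and chr6:24527691-24527940 (GRCm38.p6). RefSeq and GENCODE M21 differ on 2 of these starts. In GENCODE M21 Ndufa5 starts at chr6:24528013, so its whole window lies inside that gene model. Cox6b1 starts there at chr7:30626151, so the end of its window, with the ETS core, lies inside too. Cox6b1 holds 1 ETS core, Ndufa5 holds 1 nuclear respiratory factor 1 core, and Cox6b2 holds none of the 3 motifs in this window. Having none is not particular to Cox6b2. Atp5b, Cox5a, Cox5b and Cox7c, for example, also hold none in the promoters searched above. CG dinucleotides numbered 14, 8 and 12 in the order given, beside a median of 6 over all promoters cut the same way.
Cox6b1: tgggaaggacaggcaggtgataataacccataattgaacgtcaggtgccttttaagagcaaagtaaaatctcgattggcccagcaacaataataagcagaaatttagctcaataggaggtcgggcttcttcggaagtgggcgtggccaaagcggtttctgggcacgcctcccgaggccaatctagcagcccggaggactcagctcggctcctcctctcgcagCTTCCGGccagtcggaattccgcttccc
Cox6b2: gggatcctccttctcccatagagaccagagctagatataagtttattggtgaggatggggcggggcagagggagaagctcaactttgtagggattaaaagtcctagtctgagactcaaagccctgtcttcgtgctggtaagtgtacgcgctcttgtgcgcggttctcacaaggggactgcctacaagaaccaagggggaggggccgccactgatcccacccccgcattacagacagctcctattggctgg
Ndufa5: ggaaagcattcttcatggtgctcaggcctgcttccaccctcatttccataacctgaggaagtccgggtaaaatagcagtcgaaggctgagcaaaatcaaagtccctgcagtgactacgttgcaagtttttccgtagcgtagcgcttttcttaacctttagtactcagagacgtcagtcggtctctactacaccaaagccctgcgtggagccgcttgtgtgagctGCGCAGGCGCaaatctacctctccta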

How the data were processed

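Sorted epidermal RNA (10 ng total RNA, amplified, sequenced as 150 nt paired-end reads) from 10 libraries in 4 groups was analysed from the authors' deposited gene tables, 1 per knockout. The submitters' processing notes name kallisto 0.42.5, DESeq2 3.11 and mm10. The library columns hold gene counts divided by a size factor by the authors, treated here as a signal. In each library 100% of values were whole multiples of 1 step (tolerance 1e-06), so whole counts were recovered, here called reads. kallisto estimates counts, so these may be rounded estimates and not single reads. The log2 fold changes, Wald statistics (a score), p-values and adjusted p-values of those tables are the authors' deposited values, per the file headers.

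OXPHOS genes were matched by symbol, and their lengths and positions come from GENCODE M21. Genes averaging 5 or more entered limma 3.58.1 (trend and robust options) on log2(value + 1), each knockout against its own control, with Benjamini-Hochberg adjustment. A fold change on this scale understates the change of low genes. Medians over gene groups have no test, and library measures were compared with exact permutation tests. edgeR 4.0.16 and DESeq2 1.42.0 were run on recovered reads; DESeq2 gave the same numbers of calls as the deposited tables. The limma step was tested on simulated counts with a fixed spread and changes larger than most OXPHOS values here. That run does not show how well small changes are found in these libraries. The genes, lists and tests were chosen with earlier results of these data known. Named genes were all mt- genes, called genes, the highest and lowest of each complex and of the assembly factors among those with a mean of at least 50, the 3 nuclear ones with the highest mean, tissue isoforms, complex II and cytochrome c genes, and up to 2 genes of each other list with the smallest p, not all of which are printed; Ndufa12, Ndufb11, Cox5a, Ndufa4, Ndufa5 and Cox6b1 were added after their values were seen. Lists for adipocytes, T cells and red blood cells had 2KO medians of -0.05, 0.61 and -0.35.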

Additional observations from a re-analysis of the deposited data

How the results depend on the processing

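Without each library in turn, limma called 0 to 4 genes in the Eed knockout and 0 to 565 in the Ring1a/b 2KO; 565 came without 2KO 1, and 13 without 2KO 2. The OXPHOS genes called numbered 0 to 1 and 0 to 6 (limma and DESeq2). Those without 2KO 1 were Ndufa4, Ndufa4l2, Uqcr10 and mt-Nd6 by limma, and mt-Cytb and mt-Nd5 too by DESeq2. In these runs 1 library is left in the knockout and is assumed to vary like the others. The limma calls over all genes also rose without 2KO 1, as given above, so these names do not set OXPHOS genes apart. For DESeq2 without 2KO 1 no total over all genes is given, so its OXPHOS calls have no background to be read against. The nuclear median ranged from -0.032 to 0.569 (Eed) and from 0.309 to 0.546 (2KO), and the count without overlap in the Eed knockout from 5 to 36. DESeq2 on recovered reads and the authors' deposited table each called 127 and 231 genes, with 1 OXPHOS gene in each set. Scaling to equal nuclear totals shifted the median of all genes by 0.15 in the 2KO, gave a nuclear median of 0.574 and 51 calls, and no filter gave 10 calls. Under quantile normalization 90 of 97 and 90 of 96 OXPHOS genes were positive.

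Replicate numbers are shared between groups, but same-numbered libraries did not all deviate together in the Eed set (r = -0.108, 0.150 and 0.207), and 2 pairs in the Ring1 set (r = 0.140) cannot show it. With the replicate block limma called 1 gene in the Eed knockout and 36 in the 2KO, with 0 OXPHOS genes in either; the difference between knockouts stayed at 0 calls.

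Signs also turned: without Eed knockout 1, 34 of 84 nuclear genes were positive and 50 negative, against 79 and 5 with all libraries. In the Eed knockout equal nuclear totals gave 0.0042 for Ndufs1 and 0.034 for mt-Atp8, and quantile normalization 0.044 for mt-Atp8. Among the genes named by rule, leave-one-out ranges that crossed 0 there were -0.132 to 0.316 (Atp5a1), -0.0049 to 0.545 (Atp5b), -1.56 to 0.364 (Cox7a1), -0.356 to 0.590 (Ndufa4l2), -0.116 to 0.042 (Ndufs1), -0.052 to 0.367 (Uqcrc1), -0.158 to 0.225 (mt-Atp8), -0.064 to 0.332 (mt-Co2), -0.076 to 0.305 (mt-Co3) and -0.411 to 0.156 (mt-Nd3). In the 2KO they were -0.111 to 0.283 (Atp5d) and -0.465 to 0.121 (Ndufa6). The cause was not tested. The DESeq2 runs and overlap counts without single libraries, and the transcript length ranges, were chosen after seeing the data. The mt- medians and the ratio of mt- to nuclear reads moved by less than the spread (pooled SD) between libraries. With 2 libraries per group that SD comes from the same differences that leaving 1 out brings, so it says little for the Ring1 set. The 2KO nuclear median moved by more than its spread of 0.107 in 3 settings. It was 0.574 with equal nuclear totals, 0.546 without control 1 and 0.309 without control 2. Depth limits Cox6b2 in the Ring1 set, with 14 reads in control 2.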
